A study of Sus scrofa with 6 samples.

Results

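The calgranulins S100A8, S100A9 and S100A12 and 5 other genes that mark neutrophils were followed in the liver transcriptome of IUGR and normal pigs. IUGR (intrauterine growth restriction) is growth below the expected size before birth. The list of 8 symbols was chosen by gene name with the levels and group differences of these same libraries known, and each locus was selected on its mean level over the 6 libraries, the highest one that carried the symbol. Of the 8 symbols, 7 had such a locus, among 121055 assembled loci and 22571 loci with an Ensembl identifier. PGLYRP1, a granule protein that binds bacterial cell walls, had none under its symbol and was not analysed here. Since only the mean level chose a locus, LCN2 is the single gene for which this mattered, with 3 loci at the same coordinates.

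The pigs were PIC males of 150 days, 3 of normal birth weight (about 1.49 kg for the whole normal group) and 3 IUGR pigs (about 0.97 kg for the whole IUGR group). The labels name no treatment or genetic change. The design matched littermates of either birth weight, but the labels do not say which of these libraries share a litter. All pigs received formula as piglets and later diets set by body weight, were housed alike, were given a glucose tolerance test on the day before and fasted for a day before exsanguination, and RNA came from the core of the liver, so the tissue holds whatever blood cells remained in its vessels. Each library is 1 pig. Levels are in FPKM, fragments scaled to transcript length and to the number of mapped fragments of the library.

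Neutrophils are short-lived white blood cells that carry their weapons in granules made while the cell matures in the bone marrow. S100A8 and S100A9 are small calcium-binding proteins that pair as calprotectin, fill the cytosol of neutrophils and monocytes, and starve microbes of zinc and manganese. S100A12 is a related calgranulin, which pigs and humans have and mice lack. Azurophil granules form first and hold myeloperoxidase (MPO), specific granules follow with lactoferrin (LTF) and lipocalin 2 (LCN2), and the receptor for granulocyte colony-stimulating factor (CSF3R) stays on the surface of the mature cell. Transcripts of granule proteins are made early and fall as the cell matures, whereas S100A8 and S100A9 transcripts remain abundant in blood neutrophils.

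All of these genes were at low levels in the liver. Of the 42 values, 7 genes in 6 libraries, 20 lay below 1 FPKM, 13 of 21 in normal and 7 of 21 in IUGR pigs. S100A12 had the highest mean level, 3.23 FPKM over all libraries, followed by S100A8 at 2.87, S100A9 at 2.35, LCN2 at 1.24, CSF3R at 1.03, LTF at 0.593 and MPO at 0.0973 FPKM. Within a library this order was not firm between neighbours: S100A12 exceeded S100A8 in 4 of 6 libraries, S100A8 exceeded S100A9 in 4, S100A9 exceeded LCN2 in 5, LCN2 exceeded CSF3R in 4 and CSF3R exceeded LTF in 5. Only the step from LTF to MPO held in all 6. Among the 14727 annotated loci with a mean of at least 0.3 FPKM, which were the ones tested, the level of S100A12 stood at percentile 38.8, that of S100A8 at 36.2, and that of LTF at 8.7. The number of fragments behind each value is not known, since the table used holds FPKM and no counts.

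The 3 calgranulins and LTF were higher in every IUGR pig than in any normal pig, while CSF3R, MPO and LCN2 overlapped between the groups. No member passed limma's test after Benjamini-Hochberg adjustment over all tested loci, so none is called different. S100A8 came closest, with a mean ratio of 3.37 (IUGR over normal, of FPKM) and an adjusted p of 0.122. In bulk liver, fewer cells of a type and less RNA per cell cannot be told apart.

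**Figure D1:**
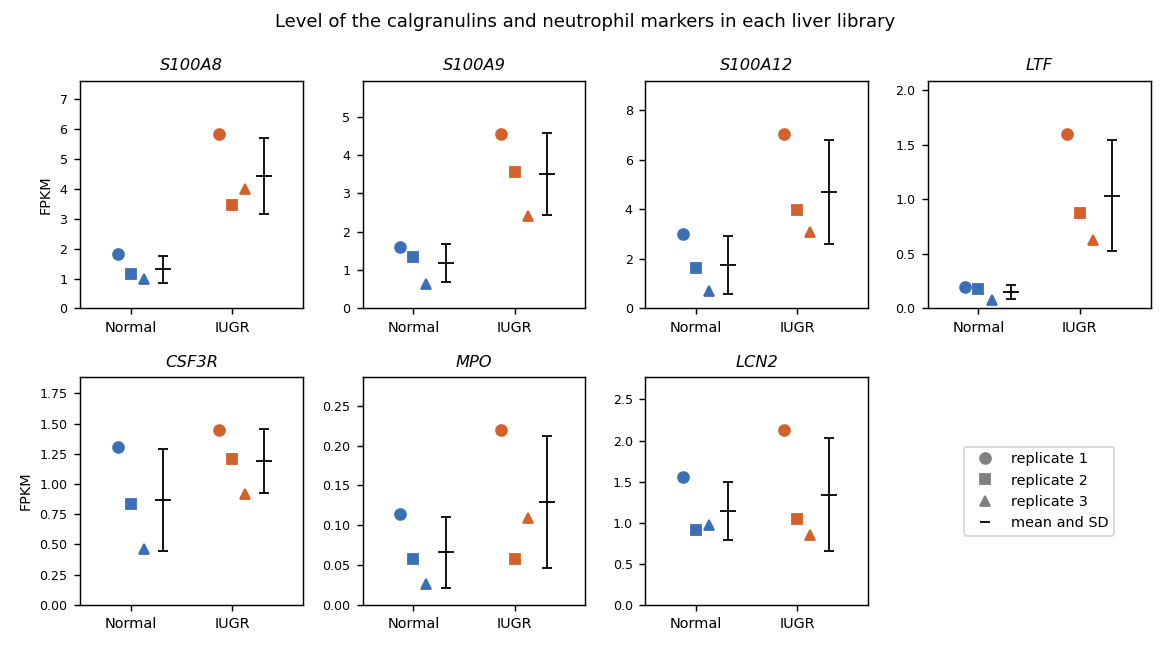
Level in FPKM (vertical axes, linear and starting at 0) of the 7 genes in 3 normal (blue) and 3 IUGR (orange) livers, with 1 point per pig, the mean as a short line and the SD as bars. The IUGR points of S100A8, S100A9, S100A12 and LTF all lie above the normal points, and IUGR replicate 1 is the highest library in all 7 panels.

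S100A8 lies on chromosome 4 (ENSSSCG00000006590, 105091816 to 105092868 of Sscrofa10.2) and encodes one chain of calprotectin. It stood at 1.82, 1.15 and 0.970 FPKM in normal replicates 1 to 3 and at 5.85, 3.44 and 3.98 FPKM in IUGR replicates 1 to 3. The lowest IUGR pig was thus above the highest normal pig, with group means of 1.31 ± 0.449 and 4.43 ± 1.26 FPKM (SD, n = 3 pigs per group). The log2 fold change was 1.22 with a standard error of 0.22, on the log2(FPKM + 1) scale, on which the added 1 pulls low genes toward 0; with 0.1 added in place of 1 it was 1.69.

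S100A9, the other chain of calprotectin (ENSSSCG00000006588, chromosome 4, 105063477 to 105066298), stood at 1.60, 1.34 and 0.643 FPKM in the normal pigs and at 4.56, 3.55 and 2.42 FPKM in the IUGR pigs. The groups again did not overlap, and the lowest library was normal replicate 3. The group means were 1.20 ± 0.496 and 3.51 ± 1.07 FPKM (SD, n = 3 pigs per group), and the log2 fold change was 1.04 with a standard error of 0.23 (adjusted p = 0.235, limma). S100A12 (ENSSSCG00000006589, chromosome 4, 105075280 to 105076728) stood at 2.99, 1.61 and 0.684 FPKM in the normal pigs and at 7.05, 3.96 and 3.07 FPKM in the IUGR pigs. Its groups were separated by a narrow gap, between normal replicate 1 and IUGR replicate 3. Its log2 fold change was 1.07 with a standard error of 0.32 (adjusted p = 0.420, limma).

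The 3 calgranulin loci lie within 29.4 kb of each other on chromosome 4, and the ratios between their transcripts overlapped between the groups. The ratio of S100A9 to S100A8, a ratio of FPKM and hence per transcript length, was 0.880, 1.17 and 0.663 in the normal pigs and 0.779, 1.03 and 0.607 in the IUGR pigs. That of S100A12 to S100A8 was 0.705 to 1.64 in normal and 0.771 to 1.21 in IUGR pigs. The summed level of the 3 genes was 2.30 to 6.41 FPKM in normal and 9.47 to 17.5 FPKM in IUGR pigs.

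LTF, the iron-binding protein of specific granules (ENSSSCG00000029879, chromosome 13, 32577739 to 32609442), had the widest relative difference, with a ratio of means of 6.89. It stood at 0.199, 0.174 and 0.0777 FPKM in the normal pigs and at 1.60, 0.876 and 0.624 FPKM in the IUGR pigs. Only IUGR replicate 1 exceeded 1 FPKM, and the mean of the normal pigs, 0.150 ± 0.0641 FPKM (SD, n = 3), was below the filter of 0.3 FPKM, so LTF entered the test through its IUGR libraries. The log2 fold change was 0.80 with a standard error of 0.17 (adjusted p = 0.223, limma). This value depends on what is added before taking logs: it was 2.12 with 0.1 and 2.69 with 0.01 added, at adjusted p values of 0.174 and 0.251 (limma).

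CSF3R, the receptor that granulocyte colony-stimulating factor uses to drive neutrophil production (ENSSSCG00000025795, on an unplaced scaffold), stood at 1.31, 0.836 and 0.463 FPKM in the normal pigs and at 1.45, 1.21 and 0.918 FPKM in the IUGR pigs. Normal replicate 1 lay above IUGR replicates 2 and 3, and CSF3R moved by 0.25 on the log2 scale (limma's adjusted p was 0.879, its standard error 0.19), beside a median of 0.15 over all tested loci. MPO, the peroxidase of azurophil granules (ENSSSCG00000017637, chromosome 12, 36245448 to 36257293), stood at 0.114, 0.0571 and 0.0262 FPKM in the normal pigs and at 0.220, 0.0575 and 0.109 FPKM in the IUGR pigs. It lay under the filter in every library, overlapped between the groups and was not tested.

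LCN2, which binds the iron carriers of bacteria and is made by hepatocytes in inflammation as well as by neutrophils (ENSSSCG00000005638, chromosome 1, 302600679 to 302605333), stood at 1.55, 0.915 and 0.975 FPKM in the normal pigs and at 2.13, 1.04 and 0.850 FPKM in the IUGR pigs. IUGR replicate 1 was the highest library and IUGR replicate 3 the lowest, and the log2 fold change was 0.097 with a standard error of 0.21 (adjusted p = 0.932, limma). The other 2 loci with this symbol were at 0.150 to 0.317 and 0.116 to 0.523 FPKM over the 6 libraries. With all 3 loci summed, the log2 fold change was -0.057, and it was negative as well after scaling to the same sum (-0.029) or by quantiles (-0.026) and without IUGR replicate 1 (-0.13), so no direction can be given for LCN2.

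Of the 6 tested members, 4 had groups that did not overlap and were higher in IUGR pigs, beside 8.39% of all tested loci. After every library was scaled to the same median, the count was again 4, beside 9.48%. At an unadjusted p under 0.05, 4 of the 6 tested members were higher, beside 6.0% of loci (883 higher and 117 lower, or 0.794% lower), and at an adjusted p under 0.05 the count was 0, beside 0.0204% in either direction (3 loci) and 0.00679% higher (1 locus). That split of all loci moved with scaling, to 876 higher and 511 lower at the same median, 806 and 652 by quantiles and 552 and 823 at the same sum, and the median of all loci moved from 0.15 to 0.016, -0.0053 and -0.051. The background moved further with a library left out: 4184 loci were higher and 128 lower without normal replicate 1, when 5 members were higher, and 425 and 128 without IUGR replicate 2, when 4 were. A log2 fold change above 1 was reached by 3 members and by 0.869% of loci. As LTF passed the filter through its IUGR libraries and the list was drawn up with S100A8 known to be high in them, these counts describe the members and support nothing further. With 3 pigs against 3, an exact permutation test cannot give a p below 0.1, which S100A8, S100A9, S100A12 and LTF each reached.

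**Figure D2:**
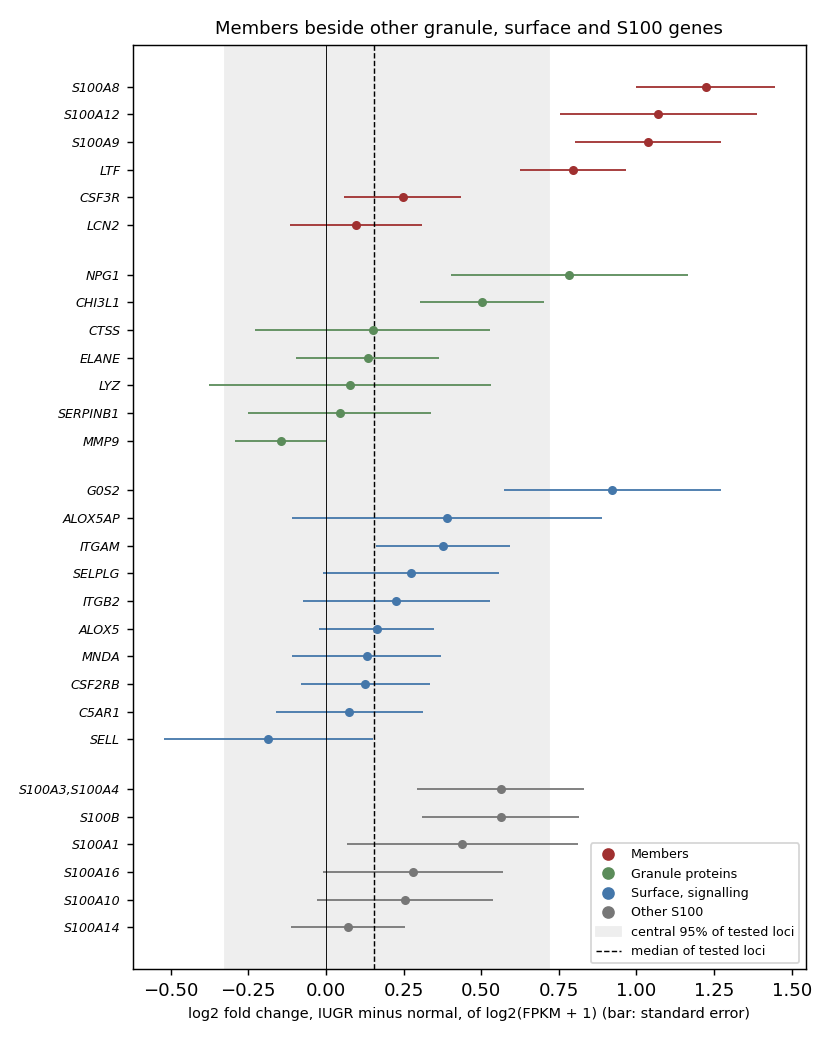
Log2 fold change (horizontal axis, IUGR minus normal, of log2(FPKM + 1)) with its standard error for the 6 tested members and for other granule, surface and S100 genes that passed the filter. The grey band spans the central part of all tested loci, percentiles 2.5 to 97.5, from -0.33 to 0.72, and the dashed line is their median of 0.15; S100A8, S100A12, S100A9 and LTF lie to the right of the band, as do NPG1 and G0S2, and the other genes lie inside it.

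The groups of the 3 calgranulins and LTF did not overlap, so leaving out 1 library could change the size of their difference but not its direction. The log2 fold change ranged from 1.04 to 1.37 for S100A8, 0.84 to 1.22 for S100A9, 0.76 to 1.38 for S100A12 and 0.60 to 0.94 for LTF. limma called S100A8 without IUGR replicate 1 (adjusted p = 0.0335, beside 1.07% of all tested loci called) or 2 (0.0328, beside 0.115%). It called LTF without IUGR replicate 3 (0.0271, beside 0.109%). The libraries also differed in the share of reads that mapped, which the study's table of libraries gives as higher in normal replicate 1 and IUGR replicates 2 and 3. Within that set S100A8 was at 1.82 FPKM in the normal pig and 3.44 and 3.98 FPKM in the IUGR pigs, and within the other set at 1.15 and 0.970 FPKM in the normal pigs and 5.85 FPKM in the IUGR pig. With this set as a second factor its log2 fold change was 1.24 and that of LTF 0.88.

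Red cell genes moved with the members in part. The summed level of HBB and HBA, the globin chains of hemoglobin (HBA has near-identical copies that can share reads), was 2248, 1543 and 965 FPKM in the normal pigs and 3584, 1965 and 1535 FPKM in the IUGR pigs, overlapping between the groups but highest in IUGR replicate 1 and lowest in normal replicate 3. Those are the libraries in which all 7 members were highest and 6 of 7 were lowest. Of the 7 genes, CSF3R had the narrowest range relative to HBB. Per 1000 FPKM of HBB it stood at 0.884, 0.856 and 0.779 FPKM in the normal pigs and at 0.730, 0.988 and 0.962 FPKM in the IUGR pigs, a range of 1.35-fold over libraries whose CSF3R level ranged 3.12-fold. The libraries also differed in level as a whole, with a median over tested loci from 3.83 FPKM in normal replicate 3 to 5.94 FPKM in normal replicate 1. No globin was among the 5 closest profiles of CSF3R, given below.

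Ratios of the calgranulins and LTF to HBB did not overlap between the groups, in a comparison added after the levels had been seen. Per 1000 FPKM of HBB, S100A8 stood at 1.23, 1.17 and 1.63 FPKM in the normal pigs and at 2.95, 2.81 and 4.17 FPKM in the IUGR pigs. LTF stood at 0.135, 0.178 and 0.131 in the normal pigs and at 0.810, 0.716 and 0.655 in the IUGR pigs on the same scale. Every IUGR value was above every normal value for S100A9 (1.08 to 1.37 and 2.30 to 2.90) and S100A12 (1.15 to 2.02 and 3.22 to 3.56) too. LCN2 and MPO overlapped on this scale.

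Set against CSF3R of the same library, S100A8 was at 1.39, 1.37 and 2.09 in the normal pigs and at 4.04, 2.85 and 4.34 in the IUGR pigs, as a ratio of FPKM. S100A9 to CSF3R was 1.23 to 1.60 in normal and 2.63 to 3.15 in IUGR pigs, S100A12 to CSF3R 1.48 to 2.29 and 3.28 to 4.87, and LTF to CSF3R 0.152 to 0.208 and 0.680 to 1.11. None of these ranges overlapped, but these genes were already apart by level. The share of all loci that separate relative to HBB or CSF3R was not computed, so these ratios describe the members only. In a fit across all loci with the level of HBB and HBA as a covariate, the log2 fold change was 0.98 for S100A8, 0.73 for S100A9, 0.60 for LTF, 0.56 for S100A12 and 0.023 for CSF3R. None of these 5 was called (adjusted p = 0.189 for S100A8 and 0.306 for LTF, limma), and S100A12 moved the most, from 1.07 without the covariate. The part of residual blood in these values was not tested.

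**Figure D3:**
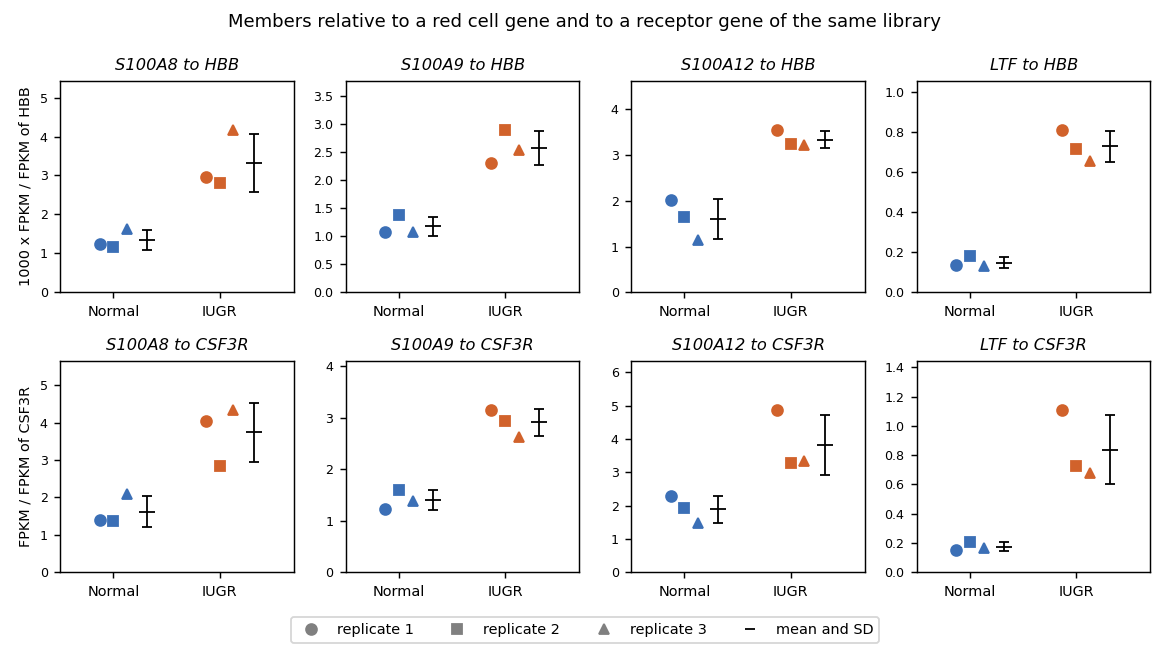
Ratios of FPKM within a library (vertical axes, linear and starting at 0) of S100A8, S100A9, S100A12 and LTF to 1000 FPKM of HBB in the upper row and to CSF3R in the lower row, with 1 point per pig and the mean and SD in black. In all 8 panels the IUGR points lie above the normal points, for example 2.81 to 4.17 against 1.17 to 1.63 for S100A8 to HBB.

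**Figure D4:**
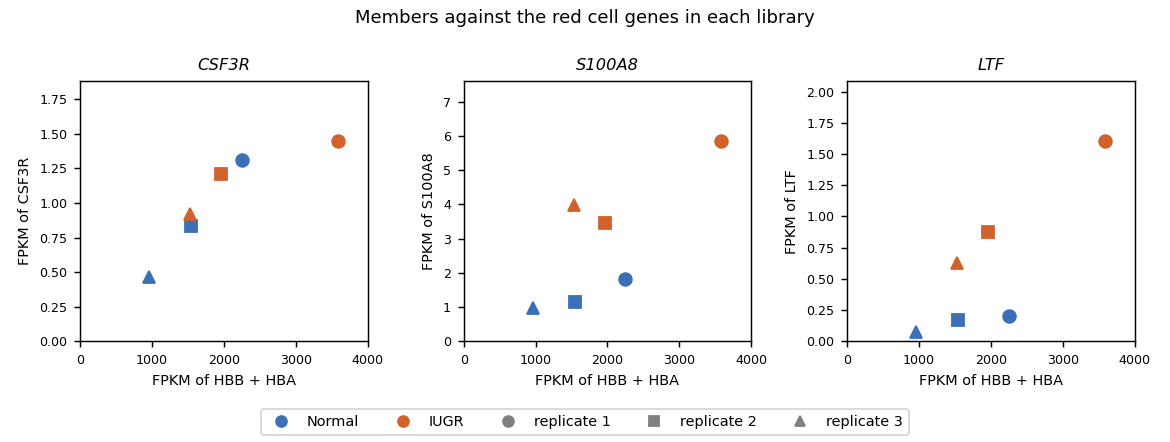
Level of CSF3R, S100A8 and LTF (vertical axes, FPKM) against the summed level of HBB and HBA (horizontal axis, FPKM) in each of the 6 libraries. CSF3R is at 0.463 FPKM in the library of lowest globin level and at 1.45 FPKM in that of the highest. For S100A8 and LTF every IUGR point lies above every normal point, while the globin levels of the groups overlap (IUGR replicate 3 at 1535 and normal replicate 2 at 1543 FPKM).

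Other granule proteins of neutrophils, from a list of 16 genes outside the members, were mostly near the floor, and 13 had a locus. Of these, 7 passed the filter, 0 were called and 1 was higher at an unadjusted p under 0.05: CHI3L1, a chitinase-like protein that macrophages make too, at 1.71, 1.28 and 1.13 FPKM in the normal pigs and 3.11, 2.33 and 1.72 FPKM in the IUGR pigs (log2 fold change 0.50, adjusted p = 0.630, limma). The median log2 fold change of the 7 was 0.14, against 0.15 for all loci. Those 7 include CTSS at 203 to 458 FPKM, SERPINB1 at 8.96 to 17.8 FPKM and LYZ at 3.42 to 15.95 FPKM. These exceeded the other tested genes of the list in every library, so the median is not one of genes near the floor alone. NPG1 (protegrin 1, an antimicrobial peptide of pig neutrophils whose close relatives in the genome can share its reads) stood at 0.533, 0.329 and 0.203 FPKM in the normal pigs and at 4.45, 0.313 and 0.746 FPKM in the IUGR pigs, so its log2 fold change of 0.78 (adjusted p = 0.770, limma) rested on IUGR replicate 1. MMP9, a gelatinase of late granules, had a log2 fold change of -0.15 (adjusted p = 0.890, limma), and ELANE, the elastase of azurophil granules, whose locus overlaps that of PRTN3, one of 0.13 (adjusted p = 0.907, limma).

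Below the filter, and named after their values were seen, the specific granule collagenase MMP8 had levels of 0.0166, 0.0487 and 0.0108 FPKM in normal and of 0.360, 0.228 and 0.0794 FPKM in IUGR replicates 1 to 3. BPI, which binds endotoxin, was listed at 0 in normal replicate 1, stood at 0.0313 and 0.010 FPKM in the other normal pigs, and reached 0.0935, 0.159 and 0.117 FPKM in IUGR replicates 1 to 3. CD177, a surface protein of neutrophils, had 0.0370 and 0.116 FPKM in normal replicates 1 and 2, was listed at 0 in normal replicate 3, and had 0.841, 0.348 and 0.162 FPKM in IUGR replicates 1 to 3. In these 3 genes the groups did not overlap, but all of their values were below 1 FPKM and none was tested. Such a separation was seen in 7.50% of the 4891 annotated loci below the filter with any signal. With tested genes included, it held for 3 of 13 granule loci (with CHI3L1) and 2 of 11 surface loci (with G0S2). Others were high in IUGR replicate 1 alone: AZU1, a protein of azurophil granules, was at 0.264 FPKM there and listed at 0 in the other 5 libraries, and the cathelicidin CAMP was at 0.891 FPKM there and at 0.0702 to 0.202 FPKM elsewhere.

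**Figure D5:**
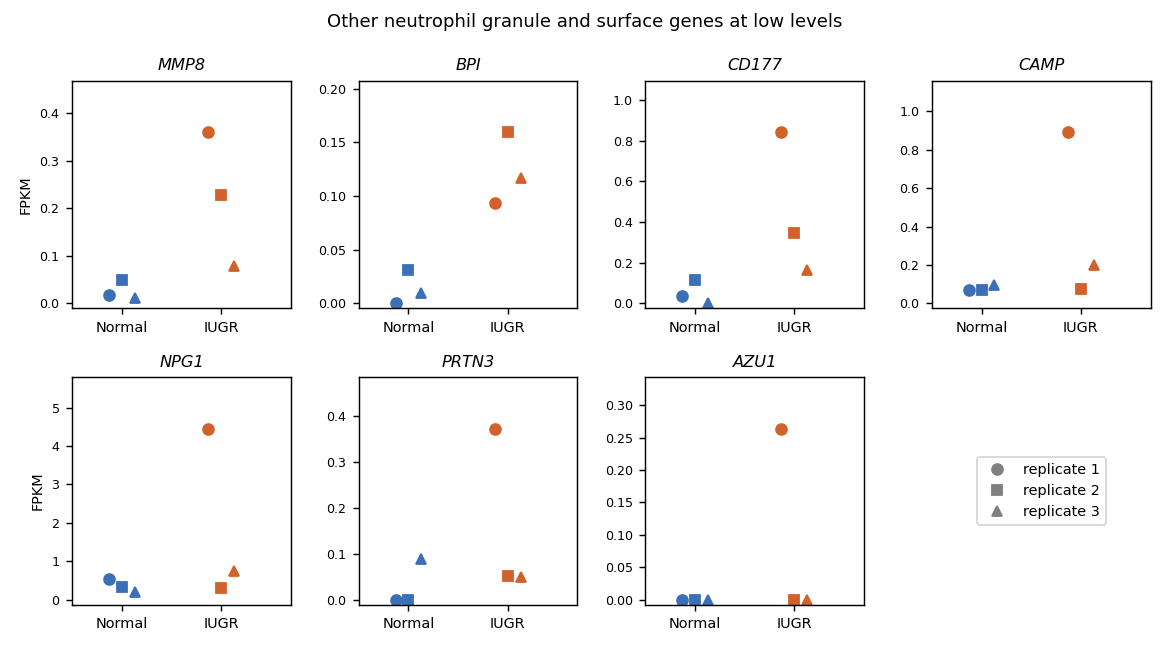
Level in FPKM (vertical axes, linear) of 7 neutrophil genes outside the members in each pig, with 1 point per pig and no mean or error since some values are listed at 0. MMP8, BPI and CD177 are higher in each IUGR pig than in each normal pig, whereas CAMP, NPG1, PRTN3 and AZU1 stand out in IUGR replicate 1, as at 4.45 FPKM for NPG1.

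Surface and signalling genes of neutrophils numbered 11 with a locus of 18 listed, and 10 were tested. None was called, 1 was higher and 0 lower at an unadjusted p under 0.05, and the median log2 fold change was 0.20. The 1 was G0S2, an inhibitor of fat breakdown that hepatocytes also make, at 27.9, 19.5 and 53.4 FPKM in the normal pigs and 69.9, 55.5 and 53.6 FPKM in the IUGR pigs (log2 fold change 0.92, adjusted p = 0.593, limma). ITGAM, the alpha chain of the CD11b integrin of neutrophils and macrophages, stood at 2.81, 1.65 and 1.54 FPKM in the normal pigs and 3.49, 2.71 and 2.38 FPKM in the IUGR pigs (0.38, adjusted p = 0.830, limma). SELPLG, a ligand for selectins, had a log2 fold change of 0.28 and ALOX5, which starts leukotriene synthesis, one of 0.16. Of the NADPH oxidase genes of the oxidative burst, CYBB, NCF1 and NCF4 had log2 fold changes of 0.093, 0.29 and 0.13, none of them below an unadjusted p of 0.05.

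Of the ligands and receptors of the members, 7 of 10 had a locus and 5 were tested, with 0 called and 0 below an unadjusted p of 0.05. CSF3, the ligand of CSF3R, was under 0.3 FPKM in all libraries, between 0.0367 and 0.237 FPKM. TLR4, a receptor for calprotectin and endotoxin, stood at 5.79, 2.74 and 3.03 FPKM in the normal pigs and 3.17, 3.61 and 3.42 FPKM in the IUGR pigs (log2 fold change -0.089, adjusted p = 0.944, limma). AGER, the receptor for S100A12, was at 0.0523 to 0.0708 FPKM in normal and 0.0715 to 0.160 FPKM in IUGR pigs, all under the filter, and SLC22A17, a receptor for LCN2, had a log2 fold change of 0.37 (adjusted p = 0.824, limma), with BSG and CD36 at 0.32 and 0.26.

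Among other S100 genes, 13 of 16 had a locus and 6 were tested, with 0 called, and S100B (log2 fold change 0.56, adjusted p = 0.724, limma) was the 1 gene higher at an unadjusted p under 0.05. The locus that joins S100A3 and S100A4 was at 0.56 as well. S100A1 was at 0.44 and had the highest level among the annotated loci of this list, 76.6 to 203 FPKM in normal and 155 to 193 FPKM in IUGR pigs. S100A7 and S100A5 were listed at 0 in every library. Of granulocyte transcription factors, 6 of 8 had a locus and 5 were tested, with 0 below an unadjusted p of 0.05. CEBPB, a factor of emergency granulocyte production and of the acute phase, was at -0.38, CEBPD at 0.27, SPI1 at 0.20 and GFI1 at 0.10, while CEBPE, which the specific granules need, was at 0.0171 to 0.357 FPKM and was not tested.

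Markers of other cells that a liver holds were summed in each library. For Kupffer cells and macrophages, all 11 listed genes had a locus, and their summed level was 765 to 1541 FPKM in normal and 934 to 1243 FPKM in IUGR pigs. The median log2 fold change of the 10 tested was 0.10, with MARCO, a scavenger receptor of Kupffer cells, at -0.47 (adjusted p = 0.814, limma), and CD163 was near 0 at its annotated locus, at most 0.0866 FPKM. For monocytes, which carry calgranulins too, 7 of 7 genes were tested. Their sums were 149 to 305 FPKM in normal and 227 to 309 FPKM in IUGR pigs, with CD14 the largest part in each library. Their median log2 fold change was 0.23. CX3CR1, a chemokine receptor, stood at 0.72 (adjusted p = 0.741, limma), and CCR2, the receptor that brings monocytes out of the marrow, at 0.34 (adjusted p = 0.806, limma). The groups of CCR2 did not overlap, as in 8.39% of all tested loci that were higher in every IUGR pig.

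The sums for T, NK and B cells were 16.4 to 28.4 FPKM in normal and 18.3 to 24.6 FPKM in IUGR pigs (7 of 10 genes, median 0.082). Those for cholangiocytes and other epithelium were 13.9 to 26.3 and 22.7 to 54.2 FPKM (5 of 7 genes, 4 tested, median 0.30), those for platelets 2.04 to 3.42 and 2.86 to 3.55 FPKM (4 of 5 genes, 2 tested), and those for red cells 979 to 2295 and 1562 to 3663 FPKM (8 of 9 genes, 6 tested, median 0.52). Acute phase proteins of the hepatocyte, which rise in inflammation, did not separate the groups: 5 of 11 listed genes had a locus, their sum was 6531 to 15860 FPKM in normal and 8942 to 10320 FPKM in IUGR pigs, and their median was -0.056, with ITIH4 at 0.32 and CRP at -0.10. HP (haptoglobin) made up most of that sum in every library. ITIH4 stood at 2034 FPKM in IUGR replicate 1, where every member was highest too, and at 536 to 946 FPKM in the other libraries. In each of these lists 0 genes were called by limma, and 3 genes were higher at an unadjusted p under 0.05: CD79B of B cells (0.39), the joint locus of GP1BB and SEPT5 of platelets (0.43) and SPP1 of the epithelium list (1.07). Among the tested genes of these lists, the groups did not overlap for CD79B, MS4A1 of B cells and the joint locus of GP1BB and SEPT5, all higher in IUGR pigs. SPP1 overlapped between the groups, at 8.50 to 14.8 FPKM in normal and 12.1 to 41.8 FPKM in IUGR pigs, and made up most of the sum of its list in the IUGR pigs. The other tested genes of that list were KRT19 (0.44), SOX9 (0.16) and CFTR (-0.52). The hepatocyte genes TTR and APOE were at 5033 FPKM or more in every library, whereas albumin (ALB) was listed at 0 in all because its estimates failed. The part that monocytes or other cells have in the calgranulin values was not tested.

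Loci with a pattern like that of a member over the 6 libraries were sought among the 10362 other loci with a symbol and a mean of at least 1 FPKM, by the root mean square difference of log2(FPKM + 1) after each profile was centred on its own mean. For S100A8 the 5 closest were ELOVL6 (difference 0.20), PPP1R3B, COL12A1, S100A9 and LTBP2 (0.23). For S100A9 they were KCNIP3 (0.13), ABHD2, NID2, COL1A1 and COL4A1 (0.16), and for S100A12 they were ADCYAP1 (0.17), S100A9, CA3, COL4A1 and HBA (0.25). S100A9 was thus among the 5 closest loci of both other calgranulins, and a globin was among those of S100A12. CSF3R had closer neighbours, GAB2 (0.026), SRI, DAPK1, SEC14L1 and NOTCH2 (0.055), and LCN2 had a joint locus of LOC100155600 and SLC39A7 (0.061), PNKD, FAM46C and ART4 (0.089) among its closest. These likenesses rest on 6 libraries only.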

How the data were processed

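Liver RNA of 3 normal and 3 IUGR pigs (poly(A) selected, paired reads) was aligned by the authors with TopHat2 2.0.14 on a Bowtie2 2.0.6 index, assembled with Cufflinks 2.2.1 and quantified with Cuffdiff 2.1.1. The authors deposited FPKM per locus and library with a status flag; read counts were not used here, so the depth behind a value is unknown and no count test was run. The submitters' processing notes name Sscrofa10.2, whose scaffold names the table carries, although the study's text also names a later build; coordinates are given as in the table, with starts raised by 1 to count from 1.

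Members and gene lists were chosen with earlier results of these data known. Values were compared as log2(FPKM + 1), without further scaling, over 14727 loci with an Ensembl identifier and a mean of at least 0.3 FPKM, with limma 3.58.1 in R 4.3.3 (eBayes with a trend, two-sided, Benjamini-Hochberg over these loci, call at an adjusted p under 0.05). The study's edgeR test needs counts and was not used. Symbols are those of the table; 1663 loci that lacked one were named through their Ensembl identifier. The locus with the highest mean was used. Genes named are the members, up to 4 per list with the lowest p, and the 5 closest profiles per member with a mean of at least 1 FPKM. MMP8, BPI, CD177, CAMP, PRTN3, AZU1, CTSS, SERPINB1, LYZ, CSF3, TLR4, AGER, S100A5, S100A7, CEBPE, CD163, CD14, HP, TTR, APOE and ALB were added after their values were seen. The model was checked on simulated data with independent noise. Changes were planted there only in loci above the mean level of every member, so that check does not cover genes as low as the members. Alternatives changed the pseudocount, filter, loci, status, scaling, variance model, covariates, replicate block and libraries; the globin covariate and the ratios to HBB and CSF3R were added after seeing the data. Python 3.11.15, pandas 2.3.3, numpy 2.4.6, scipy 1.17.1 and matplotlib 3.10.9 were used. No sequences were used. Some items are not reported here.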

Additional observations from a re-analysis of the deposited data

How the results depend on the processing

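The 3 calgranulins kept their direction under every alternative tried. LTF did so under all but the filter at a mean of 1 FPKM, which it did not pass and where it has no value. As their groups did not overlap, a changed pseudocount, filter or variance model or a library left out could not reverse the direction, which adds no support. In the fit as reported, limma called none of them. Members called by limma rose from 0 to 3 with a robust variance model (S100A8, LTF and S100A9, adjusted p = 0.0104, 0.0282 and 0.0423), beside 0.244% of all loci. The count was 2 with IUGR replicates 2 and 3 averaged to 1 library (S100A8 and LTF, 0.0474 and 0.0480), beside 0.122%, and ranged from 0 to 1 with a library left out. Over all alternatives but the replicate block the adjusted p was 0.0104 to 0.563 for S100A8, 0.0423 to 0.696 for S100A9, 0.0838 to 0.856 for S100A12 and 0.0271 to 0.643 for LTF. LCN2 turned negative after scaling to the same sum (-0.029) or by quantiles (-0.026), with its loci summed (-0.057), with the globin covariate (-0.17) and without IUGR replicate 1 (-0.13), within a range of -0.13 to 0.25 with a library left out. Over all loci, 3 were called. The count was 1 without a filter, without a trend and after median, sum or quantile scaling, 7 over all assembled loci, 10 with status OK only, 11 at a mean of at least 1 FPKM, 15 with the globin covariate, 18 with IUGR replicates 2 and 3 averaged and 36 with the robust model. It ranged from 4 to 158 with a library left out, and was 158 without IUGR replicate 1, 24 and 20 without normal replicates 2 and 1, and 17 and 16 without IUGR replicates 2 and 3.

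The replicate block called 245 loci (1.66%) and 4 members, but the labels do not say whether same-numbered pigs share a litter. Deviations from the group means correlated at -0.22, -0.072 and -0.17 across genes in same-numbered pigs, and at -0.178 to 0.227 in the other pairs. Deviations within a group of 3 are tied to each other, so these values cannot settle the pairing. Many values of the members lie near 1 FPKM or below, and the number of fragments behind them is unknown.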
